A study of Drosophila melanogaster with 10 samples.

Results

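Neuropeptide receptor genes were compared between cells that had been sorted from Drosophila melanogaster embryo-cell cultures through a cholinergic or a GABAergic reporter. The genes encode peptide-binding G protein-coupled receptors and were chosen by name from a list of 37. Of these, 23 had at least 1 Affymetrix probe set annotated to that gene alone, out of 11982 genes measured this way. The other 14 (AstA-R1, AstA-R2, AstC-R2, CCKLR-17D1, CrzR, ETHR, FMRFaR, Lgr1, MsR1, MsR2, PK2-R1, PK2-R2, CapaR and RYa-R) were not analysed here. The 23 genes had 31 probe sets, and each gene is represented by its brightest probe set, judged by the mean of the 10 arrays.

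All 10 samples came from cells of early gastrula embryos, laid by adults 2 weeks old, that were grown at 25 °C for 5 to 7 days (up to 8 days in the growth protocol). In the 5 samples called Cha, 7.4 kb of choline acetyltransferase regulatory DNA drove Gal4 and through it green fluorescent protein (the Cha-Gal:UAS-GFP strain). In the 5 samples called Gad, 2.1 kb of glutamate decarboxylase regulatory DNA drove a red fluorescent protein directly (the Gad1(s)-RFP strain). The groups therefore also differed in strain, in fluorophore and in the use of Gal4, and these cannot be told apart from the transmitter class of the marked cells. Reporter-positive cells were collected by fluorescence sorting and total RNA was hybridised. Each reporter covers only the cells in which its DNA fragment is active, and no unsorted or reporter-negative sample was used here.

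Most Drosophila neuropeptides act through G protein-coupled receptors of the rhodopsin type, and a few through receptors of the secretin type or receptors with an extracellular domain of leucine-rich repeats. A bound receptor activates a heterotrimeric G protein, which changes cyclic AMP, calcium or channel activity in the receiving cell. In the fly brain, peptide receptors are known for tuning feeding, sleep, mating and stress responses, and some are also found in fat body, gut and renal tubules.

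Values are on the log2 scale, as the authors computed them with RMA, a method that has no true zero and compresses the differences of dim genes. A value is called dim here when it lay below percentile 40 of its own array, which was 4.75 to 4.84. Levels of different genes depend on their probes and were not ranked against each other. Differences are Cha minus Gad, with the standard error (SE) and a Benjamini-Hochberg adjusted p from limma over all 11982 genes (threshold 0.05). Whether each sample was its own culture is not stated in the labels. The p-values therefore cover the spread among these 10 samples, and that spread may be technical.

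Neither of the genes behind the reporters, ChAT and Gad1, passed the threshold between the groups, and both had the higher mean in Cha. ChAT, which makes acetylcholine, was at 11.39 ± 0.44 (SD, n = 5) in Cha and 10.71 ± 0.39 in Gad (adjusted p = 0.067). Gad1, which makes GABA, was at 12.49 ± 0.30 and 12.37 ± 0.19 (adjusted p = 0.626), and each direction given here is that of the arrays as labelled. Of 9 pan-neuronal markers, 5 were higher in Cha and 0 in Gad, with a mean level of 9.65 to 10.40 on the Cha arrays and 8.80 to 9.88 on the Gad arrays. The defining neuronal gene elav ranged from 8.70 to 10.08 in Cha and from 7.59 to 9.71 in Gad (adjusted p = 0.536). Of 9 markers of peptide-releasing cells, 2 were higher in Cha (Cadps and IA-2) and 1 in Gad (svr), with a median difference of -0.04. Markers of other cell types were also present: 3 of 9 glial, 5 of 7 muscle and 3 of 8 neuroblast markers were higher in Gad and 0 of each in Cha. For comparison with all marker counts given here, 8.21% of all genes were higher in Cha and 10.2% higher in Gad. The glial gene repo was at 7.89 ± 0.47 in Cha and 8.76 ± 0.21 in Gad (adjusted p = 0.0156), and the neuroblast gene wor at 9.29 ± 0.94 and 10.47 ± 0.35 (adjusted p = 0.0589). Among 10 blood cell markers, 2 passed toward Cha and 1 toward Gad, and Hml, which did not pass, was at 7.55 ± 0.72 and 6.71 ± 0.25 (adjusted p = 0.0747). The prophenoloxidase genes PPO1 (8.84 and 5.45, 10.47-fold, adjusted p = 0.000197) and PPO2 (3.32-fold, adjusted p = 0.00143) were those higher in Cha. The transcription factor gene srp was the one higher in Gad (3.31-fold, adjusted p = 0.00165), and NimC1 (-0.84) and He (-0.75) did not pass. The part of these cell types in the receptor differences was not tested. In such bulk samples, fewer cells of a type and less RNA per cell cannot be told apart.

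Of the 23 measured receptor genes, 5 were higher in Cha (SPR, sNPF-R, SIFaR, NPFR and Dh44-R1) and 3 in Gad (AkhR, Lgr4 and CCHa1-R), while 15 did not pass the threshold. Over all genes, 8.21% were higher in Cha, 10.2% higher in Gad and 18.5% passed in either direction. The median difference of the 23 genes was 0.17, against 0.04 for all genes, and 15 of the 23 differences were positive. The groups did not overlap in 2 receptor genes higher in Cha (SPR and sNPF-R) and in 2 higher in Gad (AkhR and CCHa1-R). Over all genes, the groups did not overlap in 13.5%, with 5.93% higher in Cha and 7.6% higher in Gad. An adjusted p under 0.01 was reached by 2 receptor genes higher in Cha (sNPF-R and SPR) and 1 higher in Gad (AkhR), against 7.26% of all genes in either direction. By receptor type, 4 of 16 rhodopsin-type genes and 1 of 4 secretin-type genes were higher in Cha. In Gad, 2 of the rhodopsin type and 1 of 3 with leucine-rich repeats were higher.

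**Figure D1:**
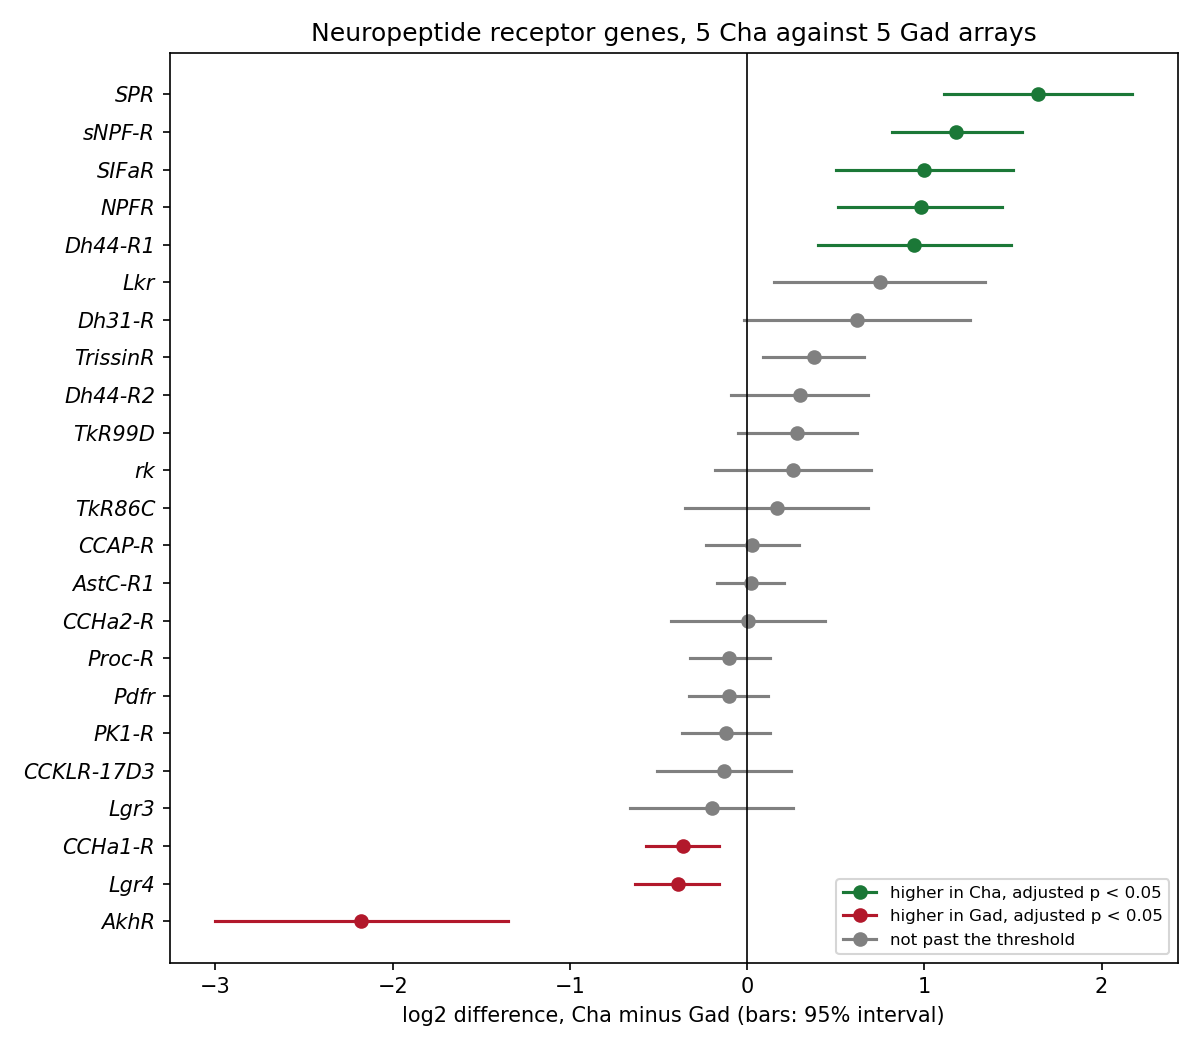
Difference in log2 expression, Cha minus Gad, for the 23 measured receptor genes, ordered by size, with 95% intervals as bars (5 Cha and 5 Gad arrays, limma). The 5 green genes at the top lie between 0.94 and 1.64, the 3 red genes at the bottom between -2.18 and -0.36, and the 15 grey genes did not pass the threshold.

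The rhodopsin-type genes higher in Cha were SPR, sNPF-R, NPFR and SIFaR. SPR encodes the receptor of sex peptide, a male seminal peptide that changes female behaviour, and of the myoinhibitory peptides made in the nervous system. It stood at 11.26, 11.01, 11.08, 9.89 and 11.08 on Cha replicates 1 to 5 and at 9.29, 8.94, 8.99, 9.42 and 9.48 on Gad replicates 1 to 5. Every Cha array was above every Gad array, although Cha replicate 4 lay well below the other Cha arrays. The difference of 1.64 (SE 0.24, 95% interval 1.11 to 2.17) is a 3.11-fold higher level in Cha (adjusted p = 0.00161). A second SPR probe set was dim on all 10 arrays (3.91 and 4.28) and gave -0.37 (adjusted p = 0.0744 over all probe sets).

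sNPF-R, the receptor of short neuropeptide F, is known for raising food intake and for modulating odour responses. Its Cha values were 11.34, 11.13, 11.07, 10.43 and 11.08, and its Gad values 9.68, 9.58, 9.86, 10.05 and 9.96. Again the groups did not overlap and Cha replicate 4 was the lowest of its group. The level was 2.27-fold higher in Cha (difference 1.18, SE 0.17, interval 0.82 to 1.55, adjusted p = 0.00123).

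NPFR is the receptor of neuropeptide F, the fly relative of vertebrate neuropeptide Y, with roles in feeding and reward. It was at 8.77, 9.35, 8.88, 8.18 and 8.93 in Cha and at 7.91, 7.48, 7.59, 8.29 and 7.95 in Gad. The groups overlapped only through Cha replicate 4, which lay below Gad replicate 4. The level was 1.97-fold higher in Cha (difference 0.98, SE 0.21, adjusted p = 0.0105). SIFaR, the receptor of SIFamide, which is known for its part in courtship and feeding, was at 10, 9.97, 9.83, 8.84 and 9.62 in Cha. In Gad it was at 8.70, 8.63, 8.14, 8.86 and 8.93, so the overlap again came from Cha replicate 4 alone. The level was 2.00-fold higher in Cha (difference 1.0, SE 0.23, adjusted p = 0.0128). A second SIFaR probe set (4.84 and 4.68), dim on 3 arrays of each group, gave 0.16 (adjusted p = 0.558 over all probe sets). Without Cha replicate 2 and Gad replicate 5, which share a letter code in the labels, SIFaR just missed the threshold (0.99, adjusted p = 0.0501).

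**Figure D2:**
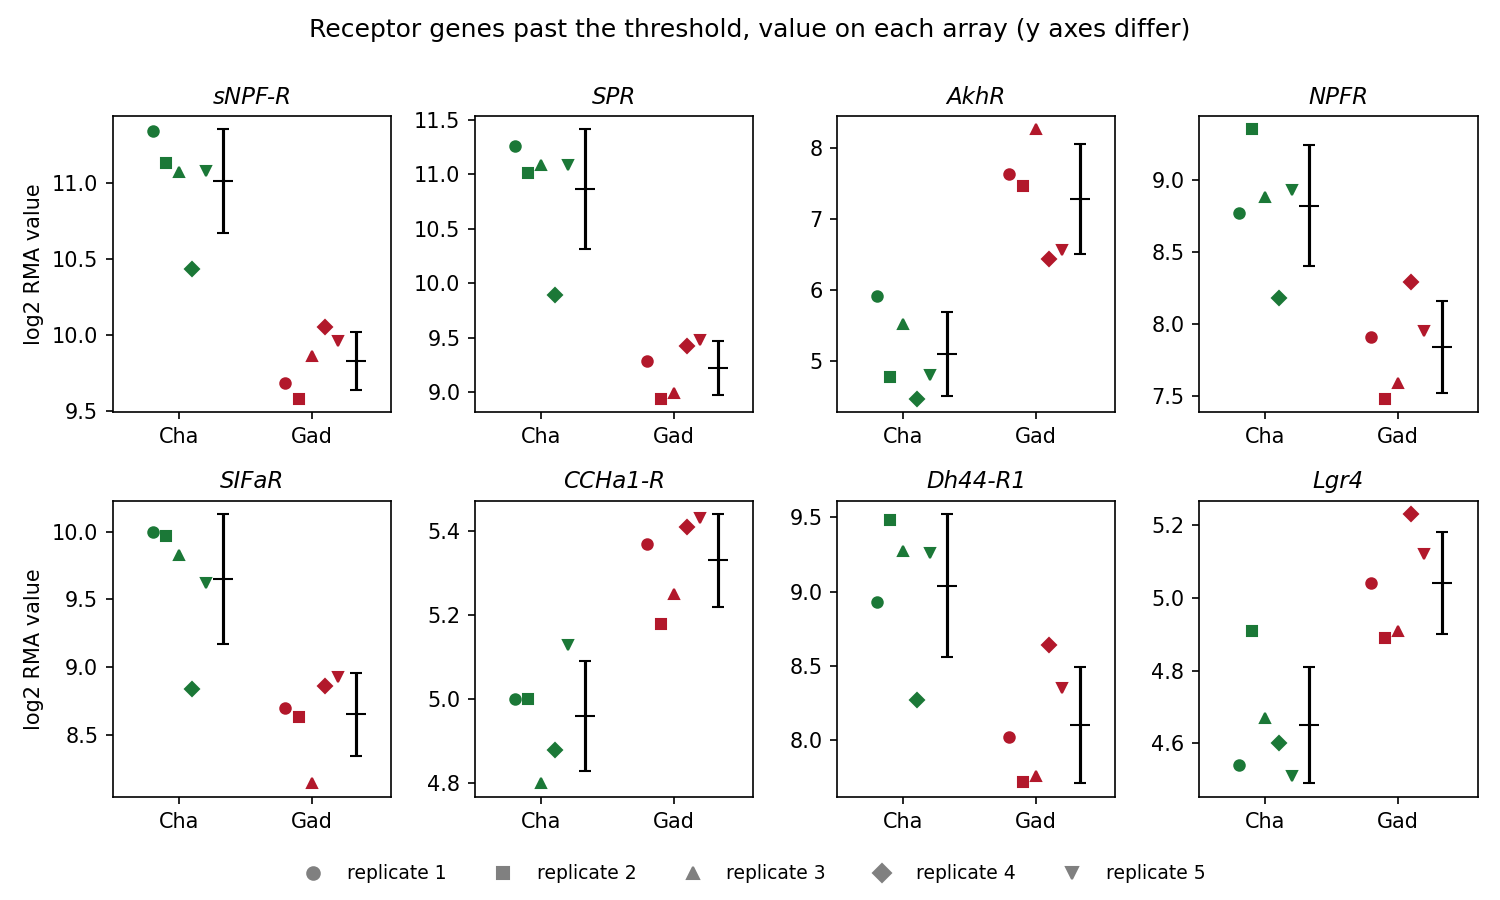
Log2 RMA value of the 8 receptor genes past the threshold on each of 5 Cha (green) and 5 Gad (red) arrays, with marker shapes for the replicate number and black bars for the mean ± SD of each group; the y axes differ between panels. Cha replicate 4, the diamond, is the lowest Cha array in all 5 genes higher in Cha.

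Of the secretin-type receptors, which in flies serve the diuretic hormones and the clock peptide PDF, 1 of 4 passed. Dh44-R1, a receptor of the corticotropin-releasing factor-like diuretic hormone Dh44, was at 8.93, 9.48, 9.27, 8.27 and 9.26 in Cha and at 8.02, 7.72, 7.76, 8.64 and 8.35 in Gad. Cha replicate 4 fell below Gad replicates 4 and 5, and the other Cha arrays lay above all Gad arrays. The level was 1.92-fold higher in Cha (difference 0.94, SE 0.25, interval 0.40 to 1.49, adjusted p = 0.0227). Leaving out single arrays ended this call in 5 of 10 cases: without Cha replicate 2 (0.84, adjusted p = 0.0538), Cha replicate 3 (0.89, 0.0531), Gad replicate 1 (0.92, 0.0513), Gad replicate 2 (0.85, 0.0573) and Gad replicate 3 (0.86, 0.0626). It also ended without the 2 arrays of the shared letter code (0.90, adjusted p = 0.0775).

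Dh44-R2, the second receptor of the same hormone, was at 5.53, 5.53, 5.21, 6.22 and 5.62 in Cha and at 5.10, 5.21, 5.33, 5.65 and 5.35 in Gad. Here Cha replicate 4 was the highest array, the reverse of Dh44-R1, and the groups overlapped (difference 0.30, interval -0.09 to 0.68, adjusted p = 0.277). A second Dh44-R2 probe set differed by 0.23 (adjusted p = 0.0421 over all probe sets) without overlap. It was dim on 4 Cha arrays and on all 5 Gad arrays. The within-array gap between Dh44-R1 and Dh44-R2 averaged 3.42 ± 0.81 (SD, n = 5) in Cha against 2.77 ± 0.28 in Gad. The difference of 0.65 did not pass a 2-sided exact permutation test (p = 0.111, adjusted p = 0.167 over the 3 pairs of related receptors compared). Without Cha replicate 4, the same gap differed by 0.99 (exact permutation p = 0.0159, adjusted p = 0.0476). With any other single array left out, the gap did not pass this test (adjusted p from 0.19 to 0.333).

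Dh31-R, the receptor of the calcitonin-like diuretic hormone 31, was spread widely within Cha, at 8.70, 8.55, 8.34, 6.95 and 7.71, against 7.50, 7.49, 7.29, 7.64 and 7.21 in Gad. Cha replicate 4 was below every Gad array, whereas the other Cha arrays were above all of them. The difference of 0.62 did not pass (interval -0.02 to 1.26, adjusted p = 0.17), and without Cha replicate 4 it did (0.90, adjusted p = 0.00792). It also passed with array weights (0.86, adjusted p = 0.0215). In the 9 other limma fits with a single array left out it did not pass (adjusted p up to 0.306). A second Dh31-R probe set gave 0.11 (adjusted p = 0.58 over all probe sets). Pdfr, which receives the circadian peptide PDF, had means of 5.24 and 5.34 with overlapping groups (difference -0.10, adjusted p = 0.535).

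AkhR differed most among the receptor genes, toward Gad. It encodes the receptor of adipokinetic hormone, which releases stored lipid and sugar from the fat body much as glucagon does in mammals. The Cha values were 5.91, 4.78, 5.52, 4.47 and 4.81, dim on 2 arrays, and the Gad values 7.64, 7.46, 8.26, 6.44 and 6.57. Every Gad array lay above every Cha array, and both groups were widely spread (SD 0.59 and 0.77). The level was 4.52-fold higher in Gad (difference -2.18, SE 0.38, interval -3.00 to -1.35, adjusted p = 0.0036), and the call held whichever single array was left out. A second AkhR probe set was dim on all 10 arrays and gave -0.02. Fat body markers, of which 7 were measured, included 3 higher in Gad and 0 higher in Cha, where 10.2% and 8.21% of all genes were. The mean level of these markers was 6.20 to 7.03 on the Cha arrays and 7.56 to 8.91 on the Gad arrays. The larval storage protein gene Lsp2, a defining fat body gene, was dim on all 5 Cha arrays (4.24 to 4.69). Its Gad values were 12.08, 4.67, 12.32, 8.77 and 7.72. Gad replicate 3 was thus the highest array for both genes, while Gad replicate 2 had a dim Lsp2 value and an AkhR value above those of Gad replicates 4 and 5. For the other fat body markers that passed, Lsd-1 and Obp99a, Gad replicate 2 lay above every Cha array. Lsd-1, which encodes a lipid droplet protein, was at 7.84, 6.68, 7.16, 5.93 and 6.13 in Cha and at 8.62, 8.84, 9.58, 8.01 and 8.24 in Gad (adjusted p = 0.00709). As for AkhR, Lsd-1 was highest on replicate 1 and lowest on replicate 4 of Cha, and highest on replicate 3 and lowest on replicate 4 of Gad. Obp99a was at 6.80 to 8.84 in Cha and 11.14 to 12.14 in Gad, with 11.22 on Gad replicate 2 (difference -3.82, adjusted p = 8.3e-05). Its highest and lowest arrays were those of AkhR in Gad but not in Cha, where they were replicates 3 and 5. The lipoprotein gene apolpp had means of 12.69 and 13.94 and did not pass (adjusted p = 0.0511). Its highest and lowest arrays were those of AkhR in both groups. The fat body genes Fbp1 (4.88 and 4.93), Fbp2 (5.08 and 4.99) and Yp1 (4.50 and 4.36) were at or near the dim range in both groups, and the part of fat body RNA in the AkhR difference was not tested.

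CCHa1-R and Lgr4 were higher in Gad by small amounts close to the dim range. CCHa1-R, the receptor of the peptide CCHamide-1, known for a role in circadian behaviour, was at 5.00, 5.00, 4.80, 4.88 and 5.13 in Cha. In Gad it was at 5.37, 5.18, 5.25, 5.41 and 5.43, with no overlap between the groups and 1 dim array in Cha. The level was 1.29-fold higher in Gad (difference -0.36, SE 0.09, adjusted p = 0.0212). Without Gad replicate 5 the call ended (-0.34, adjusted p = 0.0576), as it did without the 2 arrays of the shared letter code (-0.35, adjusted p = 0.0912). CCHa2-R, whose ligand CCHamide-2 links nutrition to insulin release, was at 6.03, 5.94, 5.39, 5.24 and 6.23 in Cha and at 5.84, 5.47, 5.59, 5.83 and 6.07 in Gad, with equal means of 5.76 (interval of the difference -0.43 to 0.44, adjusted p = 0.991). The within-array gap of CCHa1-R minus CCHa2-R differed by -0.37 between the groups (2-sided exact permutation p = 0.0635, adjusted p = 0.167), and by -0.48 without Cha replicate 4 (exact permutation p = 0.0317, adjusted p = 0.0476). With any other single array left out, this gap did not pass the same test (adjusted p from 0.143 to 0.333).

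Among the receptors with leucine-rich repeats, Lgr4 was at 4.54, 4.91, 4.67, 4.60 and 4.51 in Cha, dim on 4 of the arrays. The Gad arrays read 5.04, 4.89, 4.91, 5.23 and 5.12, so that only Cha replicate 2 reached into their range. The difference of -0.39 (SE 0.11, adjusted p = 0.0266) is a 1.31-fold higher level in Gad. It lost its call without Cha replicate 1 (-0.37, adjusted p = 0.0519), Cha replicate 5 (-0.36, 0.0515), Gad replicate 1 (-0.39, 0.0534), Gad replicate 4 (-0.34, 0.0581) or Gad replicate 5 (-0.37, 0.066). A second Lgr4 probe set, dim on all 10 arrays, gave -0.05, and with both probe sets averaged the difference was -0.22 (adjusted p = 0.131). The bursicon receptor gene rk, needed for hardening of the new cuticle after moulting, was at 5.91, 6.34, 5.82, 5.31 and 6.17 in Cha and at 5.76, 5.32, 5.42, 5.70 and 6.05 in Gad. All Gad values lay within the range of the Cha values (difference 0.26, interval -0.18 to 0.70, adjusted p = 0.407). Lgr3, the receptor of the growth-coordinating peptide Ilp8, had means of 7.79 ± 0.41 and 7.99 ± 0.32 (SD, n = 5) and a difference of -0.20 (adjusted p = 0.552).

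Lkr and TrissinR, which did not pass with all arrays, passed without Cha replicate 4. Lkr, the leucokinin receptor known for control of fluid secretion and meal size, was at 9.14, 9.52, 9.81, 8.60 and 10.12 in Cha and at 8.85, 8.18, 8.50, 9.05 and 8.88 in Gad. Apart from Cha replicate 4, every Cha array lay above the Gad arrays (difference 0.75, interval 0.15 to 1.34, adjusted p = 0.0804). The value without that array was 0.96 (adjusted p = 0.0128). In the 9 other limma fits with a single array left out, Lkr did not pass (adjusted p up to 0.176). TrissinR, the receptor of the cysteine-rich peptide trissin, was at 6.63, 6.89, 6.59, 6.30 and 6.91 in Cha and at 6.31, 6.08, 6.32, 6.46 and 6.28 in Gad. The difference of 0.38 (adjusted p = 0.0656) was 0.47 without Cha replicate 4 (adjusted p = 0.0146). It also passed after a second quantile normalization (0.45, adjusted p = 0.0281) and with array weights (0.41, adjusted p = 0.0252). It did not pass in the 9 other fits with a single array left out. Nor did it pass with the replicate number as a block (adjusted p = 0.181) or with both probe sets averaged (0.26, adjusted p = 0.0965). A second TrissinR probe set, dim on every array, gave 0.15 (adjusted p = 0.303 over all probe sets).

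The tachykinin and pyrokinin receptors did not pass. TkR99D, the receptor of the tachykinins, was at 6.16, 6.51, 6.44, 5.95 and 6.76 in Cha and at 6.28, 6.13, 5.81, 6.15 and 6.03 in Gad (difference 0.28, interval -0.05 to 0.62, adjusted p = 0.229). TkR86C, the natalisin receptor, had means of 7.80 ± 0.48 and 7.64 ± 0.34 (adjusted p = 0.675). The gap between the 2 genes differed by -0.12 between the groups (2-sided exact permutation p = 0.635). PK1-R, a pyrokinin receptor, was at 4.93, 4.87, 5.07, 5.07 and 4.93 in Cha and at 4.98, 4.89, 5.39, 4.94 and 5.27 in Gad (difference -0.12, adjusted p = 0.503). Its values lay just above the dim range on all arrays.

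The 4 remaining genes also had overlapping groups. CCKLR-17D3, a receptor of the satiety peptide drosulfakinin, had means of 6.77 in Cha and 6.91 in Gad, and CCAP-R, the receptor of crustacean cardioactive peptide, 5.80 and 5.77. The allatostatin C receptor gene AstC-R1 (4.15 and 4.13) and the proctolin receptor gene Proc-R (3.98 and 4.08) were dim on all 10 arrays, so that a difference could not have been measured well. In all, 18 of the 23 genes were above percentile 40 on every array, and the other 5 were these 2 with AkhR, Lgr4 and CCHa1-R. All 3 genes called toward Gad are thus among those with at least 1 dim array.

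The receptor genes also varied together within each group. Cha replicate 4 had the lowest Cha value in 16 of the 23 genes (69.6%), including all 5 that were higher in Cha, and Gad replicate 2 had the lowest Gad value in 15 (65.2%). Over all genes, these arrays were the lowest of their group in 24.8% and 23.3%. The same 2 arrays had the lowest mean of the pan-neuronal markers in their groups, at 9.65 and 8.80. The median SD of the receptor genes was 0.39 in Cha and 0.21 in Gad, against 0.25 and 0.17 for all genes. Without Cha replicate 4, 8 receptor genes were higher in Cha instead of 5, the added ones being Dh31-R, Lkr and TrissinR. Without both Cha replicate 4 and Gad replicate 2, a choice made after seeing the data, 8 were higher in Cha and 3 in Gad. These counts included all 8 genes called with all arrays. Leaving out 1 array otherwise gave 4 or 5 higher in Cha. The count in Gad fell to 2 when replicate 1 or 5 of Cha or replicate 1 or 4 of Gad was left out, and to 1 without Gad replicate 5.

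**Figure D3:**
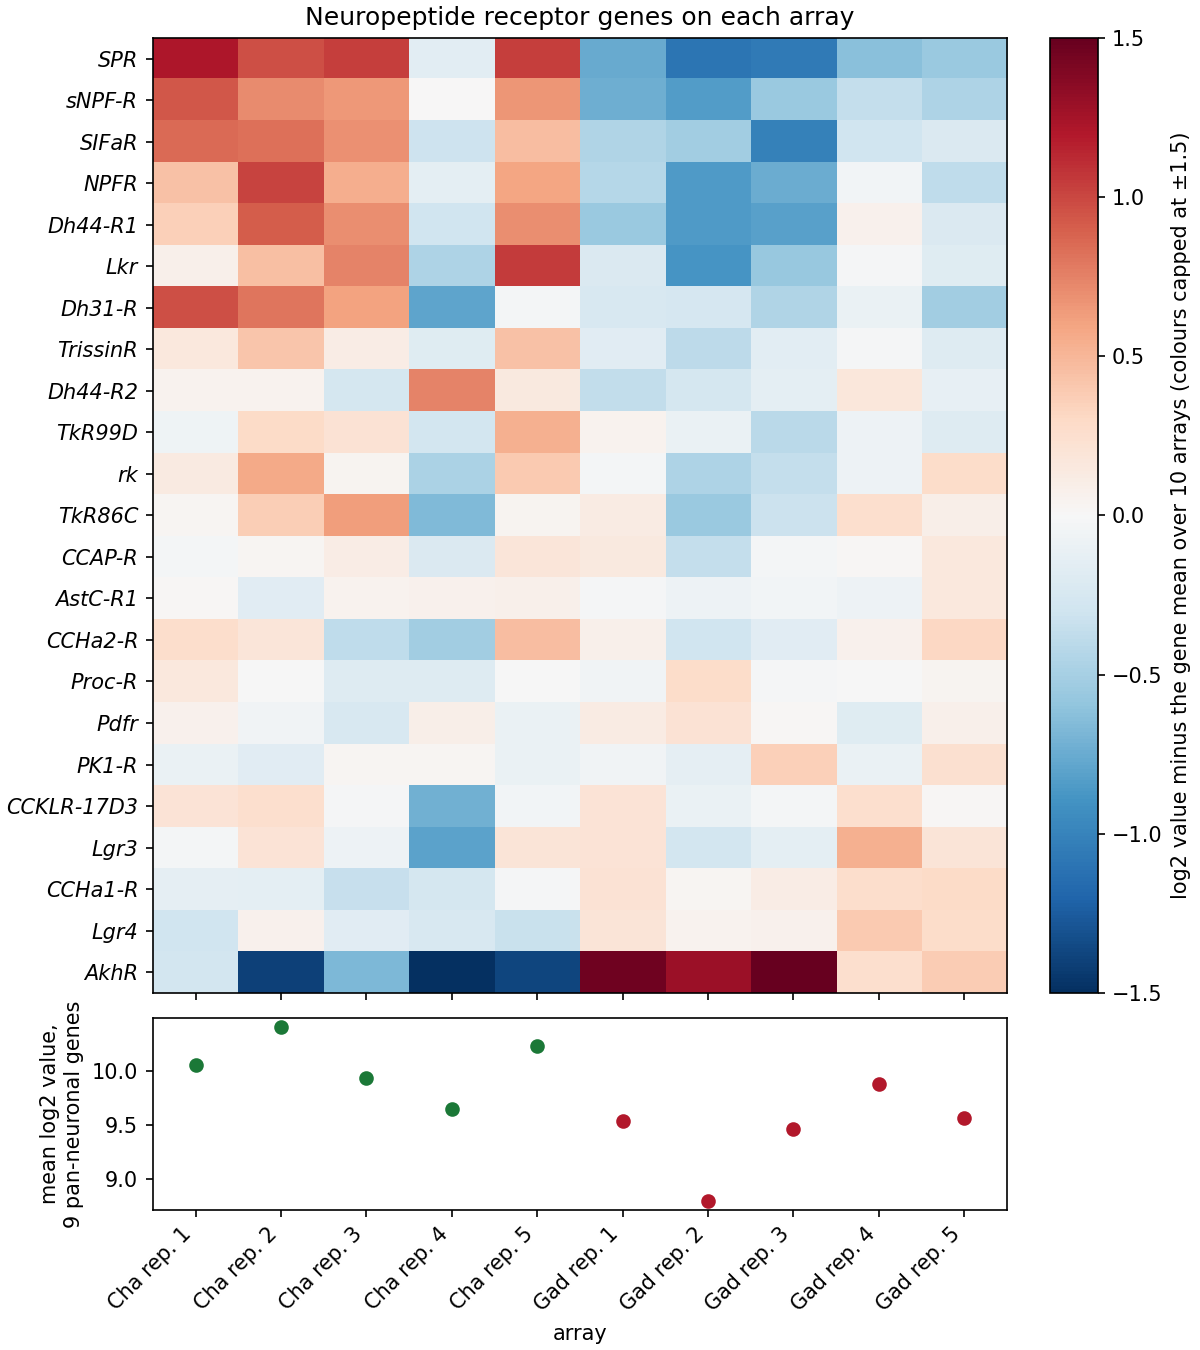
Top, log2 value of each receptor gene on each array minus its mean over the 10 arrays (red above, blue below, colours capped at ±1.5), genes ordered by their difference. Bottom, mean log2 value of the 9 pan-neuronal markers on the same arrays (green Cha, red Gad), lowest at 9.65 for Cha replicate 4 and at 8.80 for Gad replicate 2.

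Differences were positive in 8 of the 9 pan-neuronal markers. Among the 23 receptor genes, 15 were positive and 8 negative, and 6829 of all 11982 genes were positive. When each array was scaled to the mean of its pan-neuronal markers, also chosen after seeing the data, the median of all genes moved from 0.04 to -0.56. On that scale the whole table held 84 genes higher in Cha and 3356 higher in Gad, instead of 984 and 1228. SPR alone of the receptor genes was then higher in Cha (1.04, SE 0.25, adjusted p = 0.005). The differences of sNPF-R (0.58, adjusted p = 0.0655), SIFaR (0.40, 0.197), NPFR (0.37, 0.172) and Dh44-R1 (0.34, 0.224) remained positive and did not pass. AkhR stood at -2.78 on that scale (adjusted p = 2e-05), and Lgr4, CCHa1-R, Lgr3, CCKLR-17D3 and PK1-R were also higher in Gad, 6 receptor genes in all. Relative to the shift of all genes, the order of the receptor genes was the same, since every gene of an array was moved by the same amount.

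Among the genes of the peptide ligands, more passed toward Gad than toward Cha. Of 33 ligand genes listed, 26 were measured. Of these, 11 were higher in Gad and 4 in Cha (Dh44, AstC, Proc and Dh31), where 10.2% and 8.21% of all genes were. The median difference was -0.50, against 0.04 for all genes. Of the 20 receptors with a measured ligand gene, 1 had both receptor and ligand higher in Cha and 1 had both higher in Gad, while NPFR and its ligand differed in opposite directions. In 10 cases only the ligand passed, in 4 only the receptor, and in 3 neither.

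Dh44 and Dh44-R1 were the pair with both higher in Cha. Dh44 was at 10.29, 10.56, 10.51, 9.33 and 10.02 in Cha and at 8.86, 8.20, 8.36, 8.88 and 8.45 in Gad, without overlap and 3.02-fold higher in Cha (difference 1.59, SE 0.23, adjusted p = 0.00157). Akh and AkhR were the pair with both higher in Gad. The hormone gene was at 5.49, 7.27, 6.59, 6.96 and 6.94 in Cha and at 9.02, 9.92, 8.66, 8.48 and 8.26 in Gad (difference -2.22, SE 0.37, adjusted p = 0.00296). Among the Cha arrays, replicate 1 was the lowest for Akh and the highest for AkhR.

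NPF ran against its receptor, at 7.35, 8.25, 8.39, 6.82 and 6.60 in Cha and at 10.49, 8.55, 9.61, 9.12 and 9.53 in Gad. No array of the 2 groups overlapped, and NPF was 3.93-fold higher in Gad (difference -1.98, SE 0.42, adjusted p = 0.00914), while NPFR was 1.97-fold higher in Cha. SIFa was at 8.74, 9.96, 8.93, 7.08 and 6.43 in Cha and between 9.21 and 9.62 in Gad (difference -1.16, adjusted p = 0.183). The ligands of the other called receptors did not pass either: sNPF differed by 0.69 (adjusted p = 0.101), Mip by 0.12 (0.786) and CCHa1 by 0.79 (0.206). The gene of sex peptide itself, SP, was dim on all arrays of both groups (3.88 and 3.75).

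**Figure D4:**
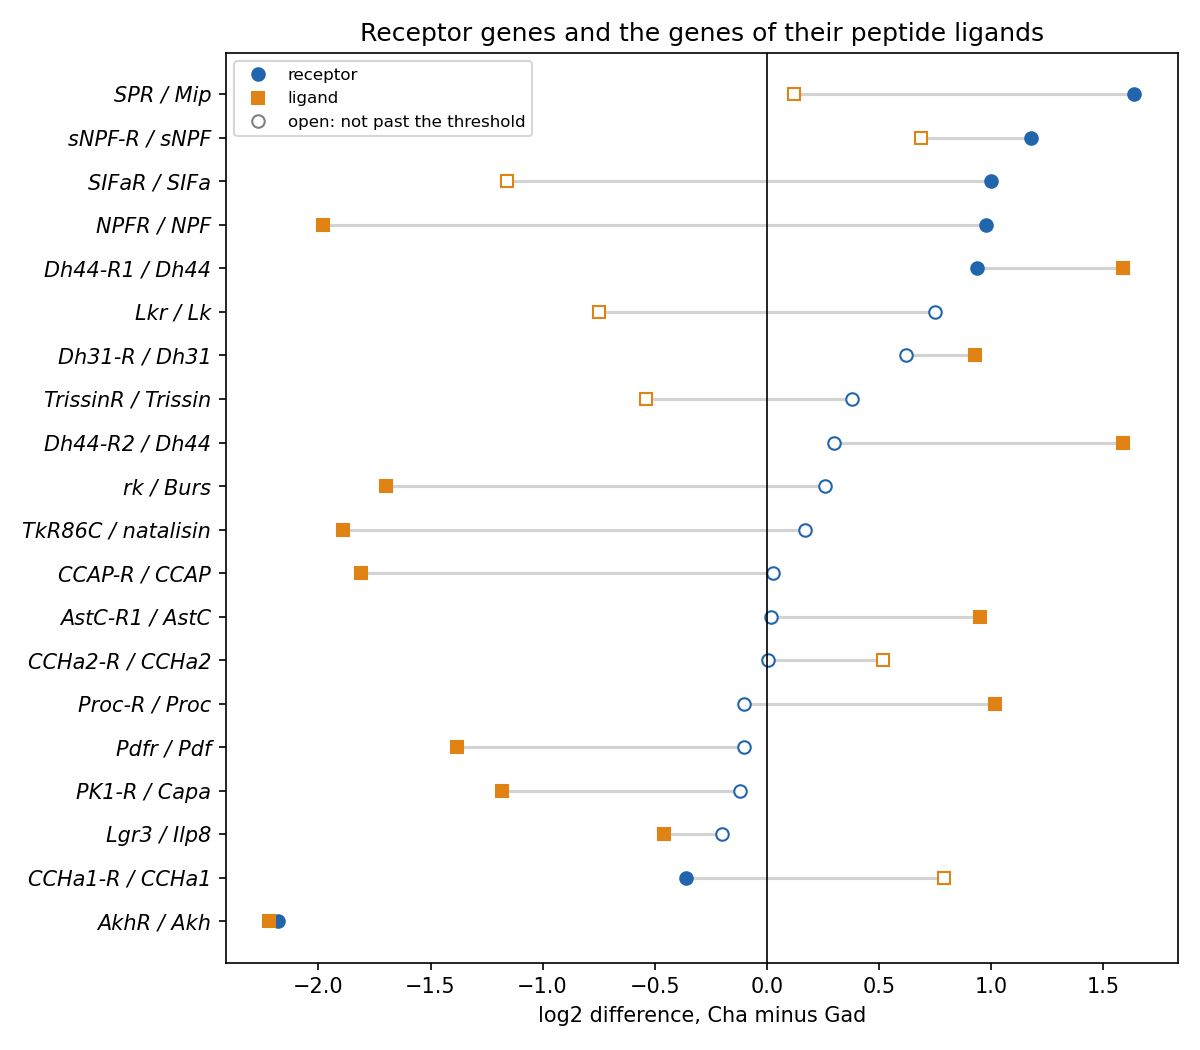
Log2 difference, Cha minus Gad, of 20 receptor genes (circles) and of the gene of a known ligand (squares), each pair joined by a line; filled symbols passed the threshold. Dh44 and its receptor Dh44-R1 both lie to the right, Akh and AkhR both to the left near -2.2, and NPFR and NPF on opposite sides.

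Further ligand genes were higher in Gad. Ms, which encodes myosuppressin, differed by -2.46 (adjusted p = 0.000745), and FMRFa by -1.41 (adjusted p = 0.00581), and the receptors of both were not analysed here. The ligand genes that follow had a measured receptor that did not pass. Burs, a subunit of the rk ligand bursicon, was 3.24-fold higher in Gad (difference -1.70, adjusted p = 0.00253), natalisin 3.70-fold (-1.89, 0.00465), CCAP 3.50-fold (-1.81, 0.00359) and Pdf 2.60-fold (-1.38, 0.00465). Capa, set here beside PK1-R, was also higher in Gad (-1.18, adjusted p = 0.0103), and CapaR was not analysed here. In Cha, Dh31 was 1.91-fold higher than in Gad (difference 0.93, adjusted p = 0.0322). That call ended when Cha replicate 2 or Gad replicate 2, 3 or 5 was left out, where the adjusted p reached 0.0801 and the difference was at least 0.71. When Cha replicate 2 or Gad replicate 2 or 3 was left out, 2 ligand genes were higher in Cha instead of 4, since Proc (1.02, adjusted p = 0.0285, named after its values were seen) also lost its call. Proc lost it in 6 of 10 such fits, with an adjusted p of up to 0.0757. The ligands Lk (-0.75, adjusted p = 0.186), Trissin (-0.54, 0.267) and CCHa2 (0.52, 0.601) did not pass.

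Genes of the G protein signalling that follows receptor activation were also listed. Of 28 measured of 37 listed, 6 were higher in Cha and 2 in Gad, where 8.21% and 10.2% of all genes were, and the median difference was 0.22. Scaled to the pan-neuronal markers, the split turned to 1 higher in Cha and 7 in Gad, and Plc21C, Galphas, Galphao and Gbeta5 lost their calls. Plc21C, a phospholipase C, was at 9.86, 9.99, 9.81, 9.44 and 10.13 in Cha and at 8.99, 8.48, 9.01, 9.18 and 8.92 in Gad (difference 0.93, SE 0.16, adjusted p = 0.00313). The G protein subunit genes Galphas, which acts through cyclic AMP (0.76, SE 0.14, adjusted p = 0.00515), Galphao (1.18, SE 0.27, adjusted p = 0.0135) and Gbeta5 (0.78, SE 0.19, adjusted p = 0.0156) were higher in Cha too. In these 4 genes the groups did not overlap. The phosphodiesterase gene Pde1c was 2.50-fold higher in Cha (difference 1.32, adjusted p = 0.00791) on its brightest probe set, and 3 others gave 0.01 to 0.62 and did not pass. In Gad, loco, which encodes a regulator of G protein signalling also known from glia, was 1.48-fold higher (difference -0.56, SE 0.12, adjusted p = 0.008). The other gene higher in Gad, the adenylyl cyclase gene rut (named after its values were seen), lost its call (adjusted p = 0.0488) with any single array left out except Cha replicate 1, with an adjusted p of up to 0.105.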

How the data were processed

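The deposited table held log2 expression values of 18952 probe sets on 10 arrays, which the authors computed by RMA according to the submitters' processing notes, and the version is not given in the sources used here. Array medians lay between 5.68 and 5.75, and the number of arrays limits the precision. Control probe sets (183) were left out, and of the other 18769, 13647 had 1 gene symbol, 402 several and 4720 none. Groups and replicate numbers came from the sample titles. The 11982 genes, 1 probe set each (highest mean over the 10 arrays), entered 2-sided tests without covariates in limma 3.58.1 (R 4.3.3), through lmFit and eBayes, with Benjamini-Hochberg adjustment, and the fit was tested on simulated data. Other probe sets were read from a fit over all 18769. Pairs of related receptors were compared with exact permutation tests in scipy 1.17.1, whose smallest 2-sided p is 0.00794.

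Values on every array are given for each receptor gene past the threshold, for the partner of a pair, and for 6 further genes with the smallest p. Up to 10 ligand and 6 signalling genes past the threshold were named, with the ligands of these receptors. The members and lists were chosen with earlier results of these data known. Alternatives covered normalization, removal of dim probe sets (kept if above percentile 40 on at least 5 arrays), priors, weights, the replicate number as a block, single arrays left out, averaged probe sets, thresholds and a rank test.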

Additional observations from a re-analysis of the deposited data

Results flagged for a closer look

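In groups of 5 arrays, a value was noted when its distance to the nearest other array was large against the range of the group (Dixon's criterion at 95%). Chance alone gives this in about 1 in 20 groups. It happened in 14 of 154 groups of receptor, ligand and signalling genes, and in 5 of the 46 receptor groups.

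Among the receptor genes, SPR on Cha replicate 4 was at 9.89 while the other Cha arrays were at 11.01 to 11.26, and Lgr3 on the same array was at 7.09 against 7.82 to 8.09. The dim genes gave the other 3: AstC-R1 at 3.97 on Cha replicate 2 (others 4.16 to 4.22) and at 4.30 on Gad replicate 5 (others 4.06 to 4.13), and Proc-R at 4.31 on Gad replicate 2 (others 3.98 to 4.07).

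Among the ligand genes, CCHa1 was low on Cha replicate 5 (8.41 against 10.10 to 10.59) and on Gad replicate 2 (8.27 against 9.32 to 9.58). Capa was high on Gad replicate 2 (8.39 against 7.39 to 7.67). Gad replicate 1 was high for Pdf (8.13 against 6.95 to 7.22) and natalisin (10.38 against 9.63 to 9.79). Among the signalling genes, Galphaq was low on Cha replicate 4 (8.57 against 9.70 to 9.96) and Itpr on Gad replicate 1 (5.99 against 6.31 to 6.42). Gad replicate 2 was low for Galphao (11.23 against 12.21 to 12.38) and Gprk1 (9.20 against 9.70 to 9.85).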

How the results depend on the processing

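Of the named genes, SPR, AkhR and the ligand genes Dh44, Ms, Akh, Burs, CCAP, natalisin, Pdf, FMRFa, NPF and Capa passed in every limma fit tried. Leaving out single arrays gave 4 to 8 receptor genes higher in Cha (8 without Cha replicate 4) and 1 to 3 higher in Gad, 2 to 5 and 9 to 11 ligand genes, 5 to 9 and 1 to 2 signalling genes, and a receptor median of 0.05 to 0.25. The pair gaps ranged from 0.49 to 0.99 (Dh44-R1), -0.48 to -0.30 (CCHa1-R) and -0.25 to -0.01 (TkR86C). Without the arrays of the shared letter code, 3 receptor, 1 ligand and 3 signalling genes were higher in Cha and 0 signalling genes in Gad. Without Cha replicate 4 and Gad replicate 2, these counts were 8, 2, 9 and 1. At an adjusted p under 0.01, receptor genes numbered 2 in Cha and 1 in Gad, ligand genes 1 in Cha, and signalling genes 3 and 1. Scaled to the pan-neuronal markers, 1 receptor, 1 ligand and 1 signalling gene were higher in Cha, and 6 receptor and 7 signalling genes in Gad. There the receptor median was -0.44, and differences turned to -0.31 (Dh44-R2), -0.60 (CCHa2-R), -0.23 (TrissinR), -0.32 (TkR99D) and -0.34 (rk), by construction of the scaling. CCHa2-R also turned with cyclic loess (-0.0022), array weights (-0.03) and single arrays left out (-0.11 to 0.14). In Gad, 1 signalling gene instead of 2 passed with cyclic loess, a second quantile normalization, median centring, dim probe sets removed, a trended prior, array weights and adjustment over all probe sets. In each of these settings rut lost its call and loco kept it. The exact rank-sum test called 0 genes in every list, since its smallest adjusted p was 0.0586; 10 of the 23 receptor genes had an unadjusted limma p under 0.05.

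Same-numbered arrays did not deviate together (correlations of -0.2206, -0.4004, -0.1436, 0.0346 and -0.0647), and no array correlated best with its own number. These values gave no sign that the numbers pair the samples, but they cannot exclude it. With the replicate number as a block, 1113 genes passed instead of 2212, with 2 receptor, 1 ligand and 2 signalling genes higher in Cha and 1 receptor and 1 signalling gene in Gad. Pair gaps under sign flips within the block kept 0.65, -0.37 and -0.12, where the smallest exact p is 0.0625.

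Dim values limit what can be said of AstC-R1, Proc-R, Lgr4 and CCHa1-R. They also limit what can be said of the size of the AkhR difference, with 2 dim Cha arrays.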
